A study of Bos taurus with 13 samples.

Results

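The nuclear-encoded genes of oxidative phosphorylation were described in the blood of dairy cows grouped by the cortisol in their milk. They were taken by name, as all genes whose symbol begins with NDUF, UQCR, COX4 to COX8 or ATP5, together with *SDHA*, *SDHB*, *SDHC* and *SDHD*. The rule matched 70 of the 16095 gene names in the counts, and 68 of them had a total of 100 or more reads over all cows. *NDUFA4L2* (15 reads in all) and *COX4I2* (4 reads in all), partners of *NDUFA4* and *COX4I1* in other tissues, fell under that minimum. *SDHD*, *COX6A1* and *COX8B* were not analysed here.

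Whole blood was taken from the tail vein into PAXgene tubes, and total RNA was sequenced on an Illumina HiSeq instrument without removal of globin RNA. All 13 cows were lactating cows of the Italian Red Pied breed, called Italian Simmental in the study. The high group held 7 cows (replicates 1 to 7) and the low group 6 cows (replicates 8 to 13), taken from the upper and lower ends of the ranking by cortisol in milk. The labels name no treatment for either group. Cortisol in milk is an indirect measure of stress, and no cortisol value was tied to a single cow here.

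Oxidative phosphorylation takes place in the inner membrane of the mitochondrion. Complexes I and II pass electrons from NADH and succinate to ubiquinone, complex III passes them to cytochrome c, and complex IV to oxygen, while complexes I, III and IV pump protons across the membrane. Complex V, the ATP synthase, uses the returning protons to make ATP. Most subunits are encoded in the nucleus and a few in the mitochondrial genome, so both genomes supply complexes I, III, IV and V, while complex II is nuclear throughout. In blood, leukocytes and platelets carry mitochondria and mature red cells do not.

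The named-gene counts of a cow ranged from 11045599 to 28124575, of which the 68 genes took between 0.723% and 0.957%. Their share was 0.723% to 0.928% in the high group (median 0.841%) against 0.723% to 0.957% among low cows (median 0.797%), so the groups overlapped. The 13 mitochondrially encoded protein genes were listed at 0 in every cow, where 3 reads would be 0.107 to 0.272 CPM. The sources used here do not state whether mitochondrial reads were removed before counting, so these zeros may not be measurements, and nuclear and mitochondrial subunits could not be compared. Leukocyte markers were present, with no T cell, B cell, monocyte or neutrophil marker in the counts at 0 in every cow. Among erythroid markers, *AHSP* had 0 to 13 reads per cow. The haemoglobin genes took 0.0282% to 0.815% of reads in the high group (median 0.118%) and 0.0114% to 0.0552% in the low group (median 0.0289%). None of the 78 library pairs was identical, and log2 CPM of library pairs correlated at 0.929 to 0.984. One library stood apart: replicate 4 of the high group was the highest of all cows in 27.4% of the 11033 genes tested, against 2.39% to 12.3% for each other cow. Many results are therefore also given without it, and the plot of fold changes shows both values for each gene in it. In blood as a whole, fewer cells of a type and less RNA per cell cannot be told apart.

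All 68 genes passed the filter on low counts and entered the comparison of groups. They comprised 29 subunits of complex I, 3 of complex II, 6 of complex III, 10 of complex IV, 10 of complex V, 7 assembly factors of complex I, and 3 further genes that are not structural subunits of the complexes. *NDUFA4* was placed with complex IV, of which it is a subunit despite its name. Levels are given as RPKM, read counts divided by exon length and by library size after TMM scaling, so that genes of different length can be set side by side.

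The genes were more abundant than most genes of the blood. Their median level was 71.7 RPKM, against 12.7 RPKM over all genes tested, and 29 of the 68 lay in the highest 10% of genes. Subunits were higher than most assembly factors, with a median level of 86.2 RPKM over 58 subunits and 6.70 RPKM over 7 assembly factors. The assembly factors ranged from 0.962 RPKM to 71.6 RPKM in *NDUFAF3*.

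The most abundant subunits belonged to complexes V and IV. *ATP5G2*, which encodes the c subunit of the rotating ring of the ATP synthase, was at 685 ± 90.8 RPKM (mean ± SD, n = 13 cows). *COX4I1*, a nuclear subunit of cytochrome c oxidase, was at 615 ± 91.7 RPKM. *ATP5B* and *ATP5A1*, the beta and alpha subunits of the catalytic head of the ATP synthase, were at 567.9 ± 92.2 and 536 ± 65.3 RPKM. These 3 ATP synthase genes and *COX4I1* ranked above *COX5A*, another nuclear subunit of complex IV, at 372 ± 64.3 RPKM. The highest levels in the other complexes were those of *NDUFB11* (260 ± 49.2 RPKM), an accessory subunit of the membrane arm of complex I, *SDHB* (251 ± 39.7 RPKM), the iron-sulfur subunit of complex II, and *UQCRC1* (167 ± 28.3 RPKM), a core protein of complex III.

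**Figure D1:**
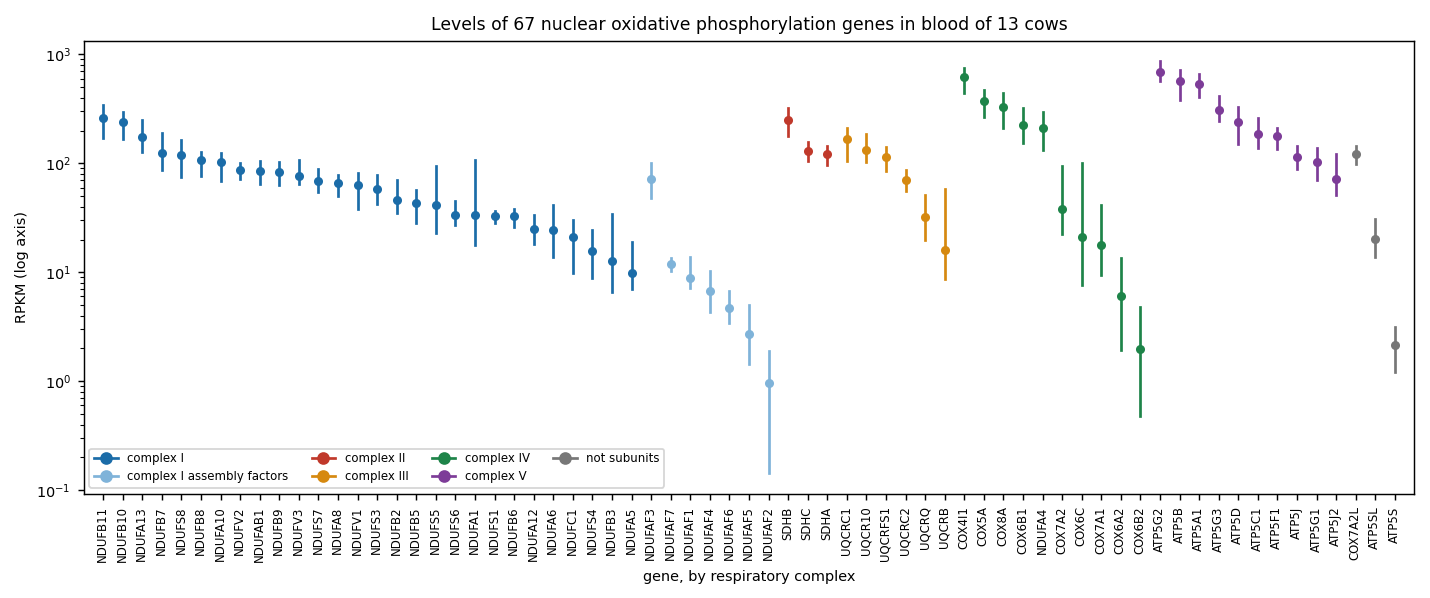
Level of 67 of the 68 genes in RPKM on a log axis, grouped by respiratory complex; points are means over 13 cows and lines run from the lowest to the highest cow. The highest point is *ATP5G2* at 685 RPKM and the lowest *NDUFAF2* at 0.962 RPKM, and the long lines of *NDUFA1*, *COX6C* and *UQCRB* end in replicate 4 of the high group.

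The lowest levels were those of some complex I assembly factors, *COX6B2* and *ATP5S*. *NDUFAF2* was at 0.962 ± 0.506 RPKM with only 2 to 26 reads per cow, *NDUFAF5* at 2.74 ± 0.998 RPKM and *NDUFAF6* at 4.75 ± 0.971 RPKM. *COX6B2*, known as the testis form of a complex IV subunit, was at 1.96 ± 1.23 RPKM (4 to 50 reads per cow), and *ATP5S*, a coupling factor of the ATP synthase, at 2.16 ± 0.607 RPKM.

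Where a subunit has several genes, 1 of them usually led. Of the 3 genes for the c subunit, which encode the same mature protein behind different import sequences, *ATP5G2* took 57.9% to 66.9% of their summed RPKM per cow. *ATP5G3* took 25.5% to 31.2% and *ATP5G1* 6.86% to 10.9%, so that the order was the same in all 13 cows. *COX6B1* took 98.4% to 99.7% of the sum with *COX6B2*. The pair of *COX7A1*, known as the heart and muscle form, and *COX7A2*, the form of most tissues, was less fixed: *COX7A1* took 13.4% to 55.4% in the high group and 26.3% to 48.9% in the low group. In the high group the lowest share was that of replicate 4 and the highest that of replicate 5. *COX6A2*, the muscle form of another complex IV subunit, was at 6.05 ± 3.74 RPKM. *COX6B1* (chr5:94363786-94364264, UMD3.1) and *COX8A* (chr20:24442440-24442887, UMD3.1), both subunits of complex IV, are entries of a single exon on a chromosome other than the one RefSeq gives these genes in a later assembly. How reads were divided between such copies is uncertain for both. The same holds for the *ATP5G* genes, which resemble each other.

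For the comparison of high against low milk cortisol, edgeR's quasi-likelihood test gave no gene an adjusted p below 0.05, neither among the 68 nor among all 11033 genes (0% called). The smallest adjusted p was 0.998 for both. At an unadjusted p below 0.05, 2 of the 68 were higher in the high group, where 0.934% of all genes were, and 0 were lower, where 1.16% of all genes were. The 2 were *COX6C* and *NDUFA1*. In this comparison 31 of the 68 had a positive and 37 a negative log2 fold change, with a median of -0.02, against 0.01 over all genes. No gene of the 68 separated the groups without overlap, and 0.0272% of all genes did. The 95% interval of the log2 fold change lay between -1 and 1 for 61 of the 68 genes and between -0.5 and 0.5 for 48. These p-values measure the spread between single cows.

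**Figure D2:**
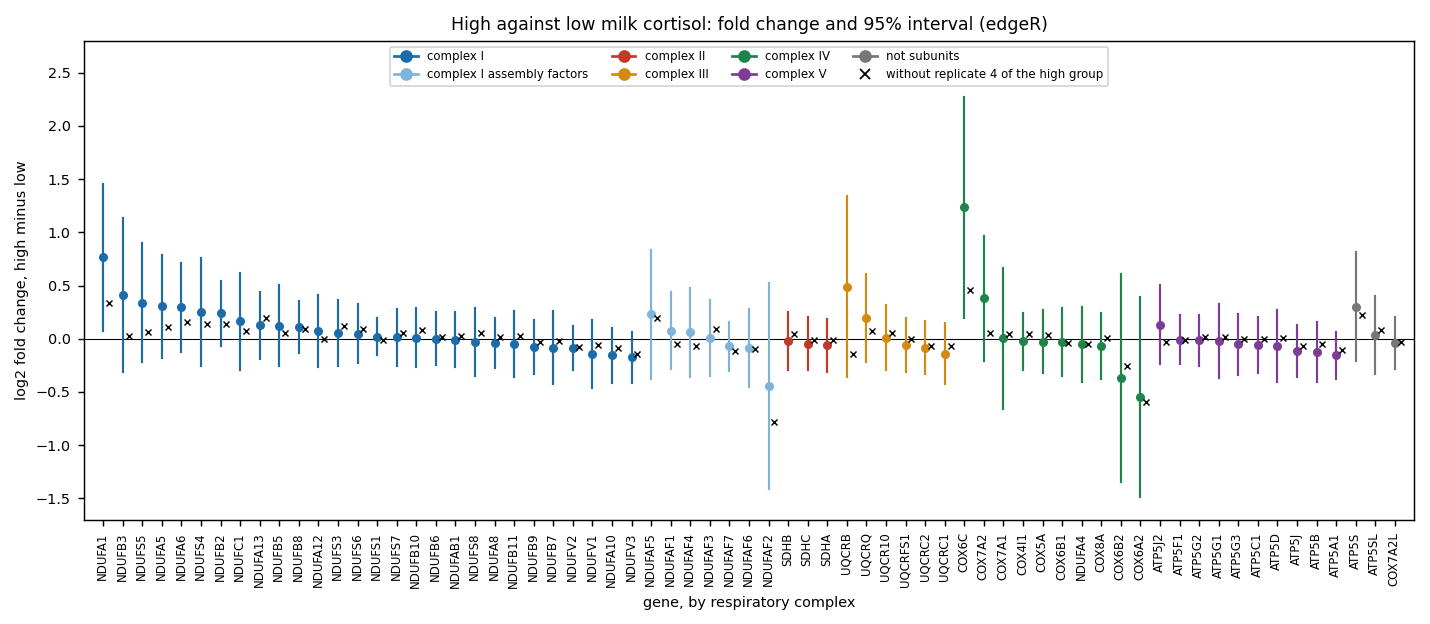
Log2 fold change, high minus low, of 67 of the 68 genes by complex, with the 95% interval from edgeR as lines and the value without replicate 4 of the high group as crosses. The intervals of *COX6C* and *NDUFA1* alone lie wholly on one side of 0, and their crosses stand at 0.46 and 0.33.

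*COX6C*, a small nuclear subunit of complex IV on chr14:66637801-66647721, had the largest log2 fold change. Its level was 9.12 RPKM in the lowest cow of the high group, 17.1 at the median and 100 in the highest, which was replicate 4. In the low group the lowest, median and highest values were 7.59, 12.8 and 18.2 RPKM. A second cow of the high group, replicate 6 at 28.9 RPKM, also lay above all low cows, while the remaining 5 overlapped with them. The log2 fold change was 1.23 (SE 0.49, unadjusted p = 0.0224 and adjusted p = 0.998 by edgeR), and an exact two-sided permutation test over 1716 splits of the cows, which can give a p as small as 0.000583, gave p = 0.106. Without replicate 4 the log2 fold change was 0.46 (unadjusted p = 0.112 by edgeR).

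*NDUFA1*, an accessory subunit needed to assemble the membrane arm of complex I, lies on the X chromosome (chrX:4068880-4072037). Its lowest, median and highest levels were 20.8, 31.3 and 107 RPKM in the high group and 17.8, 24.1 and 34.3 RPKM in the low group. Replicate 4 was again the highest, replicate 2 followed at 44.7 RPKM, and 6 of 7 high cows lay above the low median. The log2 fold change was 0.76 (SE 0.33, unadjusted p = 0.0317 and adjusted p = 0.998 by edgeR; exact permutation p = 0.0851). Without replicate 4 it was 0.33, with an unadjusted p of 0.101 by edgeR. Leaving out low replicate 8, 9 or 13 gave an unadjusted p of 0.0529, 0.0648 or 0.0573. By limma-voom the unadjusted p was 0.0909 for *NDUFA1* and 0.0988 for *COX6C*.

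With replicate 4 left out, 0 of the 68 genes had an unadjusted p below 0.05, against 1.95% of 10998 genes tested, and the median log2 fold change of the 68 was 0.01.

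**Figure D3:**
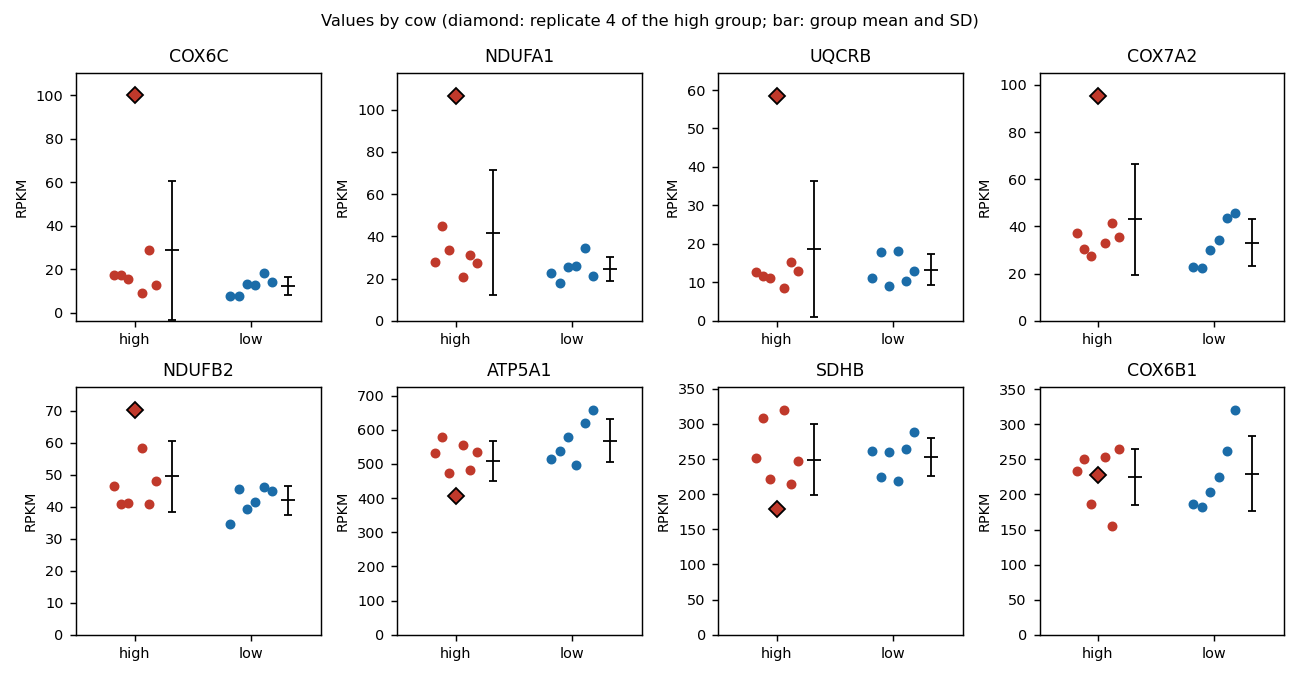
RPKM per cow of 8 genes in the high (red) and low (blue) group, with the group mean and SD as a black bar; the diamond is replicate 4 of the high group. In *COX6C*, *NDUFA1*, *UQCRB* and *COX7A2* the diamond stands at 100, 107, 58.5 and 95.4 RPKM, above every other cow, while in *ATP5A1* and *SDHB* it is the lowest cow.

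Within complex I, 18 of 29 subunits had a positive log2 fold change and the median was 0.02, with 0 called. The 7 core subunits, which carry the redox centres and are conserved from bacteria, had log2 fold changes between -0.14 and 0.05. The 22 accessory subunits spread from -0.18 to 0.76. *NDUFB2* was at 49.5 ± 11.1 RPKM (SD, n = 7) in the high and 42.0 ± 4.42 RPKM (n = 6) in the low group, and its log2 fold change was 0.24 (SE 0.14). *NDUFA6* was at 26.8 ± 6.91 and 21.8 ± 5.54 RPKM, a log2 fold change of 0.30 (SE 0.20), and 6 of 7 high cows were above the low median. On the other side, *NDUFV3*, of the NADH-oxidizing module, was at 72.8 ± 7.37 and 82.2 ± 14.8 RPKM, a log2 fold change of -0.18 (SE 0.11). *NDUFA10*, of the membrane arm, was at 97.1 ± 17.6 and 108 ± 11.5 RPKM (log2 fold change -0.16, SE 0.12). The intervals of all 4 included 0. Without replicate 4 the 4 values were 0.13, 0.16, -0.15 and -0.09.

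Complex II, which also belongs to the citric acid cycle, gave nearly equal group levels. *SDHA*, the flavoprotein that oxidizes succinate, was at 121 ± 17.2 RPKM in the high and 126 ± 17.5 RPKM in the low group. *SDHB* was at 249 ± 50.5 and 253 ± 26.8 RPKM, and *SDHC*, a membrane anchor, at 128 ± 18.4 and 132 ± 20.3 RPKM. The log2 fold changes were -0.06, -0.02 and -0.05, and the intervals of the 3 subunits ran from -0.31 at the lowest to 0.25 at the highest. Without replicate 4 the log2 fold changes were -0.02, 0.04 and -0.01.

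In complex III, 3 of 6 subunits were positive and 3 negative, with a median of -0.02. *UQCRC1* was at 159 ± 30.2 RPKM in the high and 176 ± 25.4 RPKM in the low group, with a log2 fold change of -0.14 (SE 0.14) that was -0.06 without replicate 4. *UQCRB*, a small subunit that takes part in binding ubiquinone, had a lowest, median and highest level of 8.63, 12.8 and 58.5 RPKM in the high group and 8.94, 12.0 and 18.2 RPKM in the low group. Only replicate 4 lay above the low group. Its log2 fold change of 0.49 (SE 0.40) became -0.14 without that cow, so its direction turned with 1 library.

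In complex IV, 7 of 10 subunits were negative, with a median of -0.03 that was 0.02 without replicate 4. *COX7A2* ranged between 27.5 and 95.4 RPKM among high cows (median 35.6) and between 22.3 and 45.7 RPKM among low cows (median 32.1), with a log2 fold change of 0.38 (SE 0.28) that was 0.05 without replicate 4. *COX7A1* was at 17.9 RPKM in both groups (SD 10.4 and 5.87), and its highest cow, replicate 5 of the high group, was at 41.1 RPKM. Without that cow its log2 fold change of 0.00 became -0.35. *COX6A2* ranged between 1.92 and 12.0 RPKM among high cows (median 4.41) and between 2.76 and 13.5 RPKM in low cows (median 6.59), with a log2 fold change of -0.54 (SE 0.44). Without replicate 5 of the high group, its highest cow there, that was -0.94 with an unadjusted p of 0.0368 by edgeR, and without replicate 8 of the low group, the highest cow of all, it was -0.27 with an unadjusted p of 0.557. *COX6B2* gave -0.37 (SE 0.46) at its few reads. The abundant subunits differed little: *COX4I1* gave -0.02, *COX5A* -0.03, *COX6B1* -0.03, *NDUFA4* -0.05 and *COX8A* -0.07, each with an SE of 0.13 to 0.17. Without replicate 4 *COX4I1* and *COX5A* gave 0.04 and *COX8A* 0.01.

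In complex V, 9 of 10 subunits had a negative log2 fold change, with a median of -0.06 and a range of -0.16 to 0.13, and 0 had an unadjusted p below 0.05. *ATP5A1* ranged between 407 and 578 RPKM among high cows (median 532) and between 497 and 659 RPKM among low cows (median 557). Replicate 4 was its lowest cow, and 1 of 7 high cows lay above the low median. The log2 fold change was -0.16 (SE 0.11, unadjusted p = 0.156 by edgeR) and -0.11 without replicate 4. *ATP5B* gave -0.12 (SE 0.13), which was -0.05 without replicate 4, and *ATP5G1*, *ATP5G2* and *ATP5G3* gave -0.02, -0.02 and -0.05, and without replicate 4 0.02, 0.02 and -0.01. Without replicate 4 the median of complex V was -0.01.

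The 7 assembly factors had log2 fold changes between -0.44 (*NDUFAF2*, SE 0.46) and 0.23 (*NDUFAF5*, SE 0.29), with 0 called. *NDUFAF4*, *NDUFAF1* and *NDUFAF6* gave 0.06, 0.08 and -0.09. Without replicate 4 *NDUFAF2* was at -0.78, *NDUFAF4* at -0.07 and *NDUFAF1* at -0.05, so the direction of the latter pair turned. Of the further genes, *COX7A2L*, which joins complexes III and IV into supercomplexes, was at 121 ± 15.8 and 124 ± 19.1 RPKM (log2 fold change -0.04), and *ATP5S* gave 0.30 (SE 0.24).

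Of 4 haemoglobin genes in the same comparison, 3 had an unadjusted p below 0.05 and were higher in the high group, where 0.934% of all genes were. Their median log2 fold change was 2.72, with 0 called. The groups overlapped: high replicates 1 and 2, at 0.0282% and 0.0318% of reads, lay within the low range of 0.0114% to 0.0552%. The wider erythroid list names *HBB*, *HBM* and *HBQ1* too, so it is not a separate result. Of its 5 tested genes 3 were higher at an unadjusted p below 0.05, with a median of 1.21. Its summed level was 375 to 7835 CPM among high and 137 to 569 CPM among low cows. Haemoglobin genes alone summed to 277 to 7695 and 119 to 536 CPM. With the haemoglobin share as a covariate the same 2 of the 68 genes (2.94%) had an unadjusted p below 0.05, against 1.09% of all genes. The median of the 68 was then 0.01. Among leukocyte and platelet lists, 2 of 7 tested neutrophil genes and 1 of 6 monocyte genes were lower at an unadjusted p below 0.05, and 0 T cell, B cell, cytotoxic or platelet genes were in either direction. Summed neutrophil markers ranged between 4801 and 9624 CPM among high cows and between 7474 and 10168 CPM among low cows, and summed monocyte markers between 557 and 1349 and between 954 and 1370 CPM. With the difference between neutrophil and T cell scores as a covariate, the same 2 genes (2.94%) were under 0.05, against 2.59% of all genes. The median of the 68 was then -0.05.

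The genes of related pathways were counted at an unadjusted p below 0.05 in the same way, where 0.934% of all genes were higher and 1.16% lower. Of 17 citric acid cycle genes 1 was lower, of 15 glycolysis genes 0 were in either direction, of 69 mitochondrial ribosomal genes 1 was higher, of 33 assembly factors of the other complexes 1 was lower, and of 12 regulators of respiratory genes 1 was higher. Their median log2 fold changes were -0.11, -0.05, 0.04, 0.05 and 0.07. Of 54 cytosolic ribosomal genes 1 was higher and of 7 proliferation genes 2 were lower, with medians of 0.09 and -0.53. The regulator was *NRF1*, a transcription factor of nuclear respiratory genes, at 8.81 ± 1.398 RPKM over the 7 high cows and 7.02 ± 0.75 RPKM over the 6 low cows, with a log2 fold change of 0.33 (SE 0.13, unadjusted p = 0.0271 and adjusted p = 0.998 by edgeR). Without replicate 4 of the high group that was 0.25 with an unadjusted p of 0.0511. *GABPA*, which regulates the same genes, gave 0.24 (SE 0.19), *TFAM*, which maintains and transcribes mitochondrial DNA, 0.11 (SE 0.25), and *ESRRA* 0.00 (SE 0.10). Replicate 4 was the highest cow for *GABPA* (25.9 RPKM) and *TFAM* (15.2 RPKM), and without it they gave 0.05 and -0.12, so that the direction of *TFAM* turned. The coactivators *PPARGC1B* and *PPRC1* gave 0.13 (SE 0.25) and -0.02 (SE 0.10), and *PPARGC1A* was listed at 0 in every cow. *YY1* and *CYCS* were not analysed here. *CYC1*, the cytochrome of complex III that the name rule leaves out, was at 137 ± 26.7 and 144 ± 20.03 RPKM (log2 fold change -0.08, SE 0.13).

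Across the cows, most pairs of subunits varied in the same direction. The median Pearson r of log2 CPM over the 1653 pairs of 58 subunits was 0.368 over 13 cows, against -0.00228 over pairs of all genes tested, and 67.9% of subunit pairs were positive. Other gene lists gave medians from -0.0587 for regulators of respiratory genes to 0.791 for proliferation genes. Among those between were 0.0675 for assembly factors of the other complexes, 0.190 for cytotoxic markers and 0.619 for B cell markers. Nearer to the subunits were 0.449 for glycolysis, 0.429 for the cytosolic ribosome, 0.413 for T cell markers, 0.327 for the citric acid cycle and 0.304 for the mitochondrial ribosome. The pairs share their libraries, and these correlations are descriptions. The median was 0.451 without replicate 4, 0.328 within the high group (n = 7) and 0.527 within the low group (n = 6).

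The complexes differed in how closely their own subunits followed each other. The median r was 0.807 over the 3 pairs of complex II, 0.591 in complex V, 0.409 in complex IV, 0.279 in complex I and 0.0858 in complex III. Without replicate 4 these were 0.797, 0.670, 0.451, 0.379 and 0.193. With subunits of the other complexes, the median r was 0.557 for complex II, 0.475 for V, 0.403 for IV, 0.358 for I and 0.312 for III. For complexes I and III this was higher than the median within the complex, and for IV it was nearly equal. The core subunits of complex I had a median r of 0.385 and the accessory subunits 0.266, and the 7 assembly factors 0.226 among themselves and -0.162 with subunits of the complexes. The assembly factor *NDUFAF3* went the other way, at r = 0.636 with the mean of the subunits (0.798 without replicate 4).

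**Figure D4:**
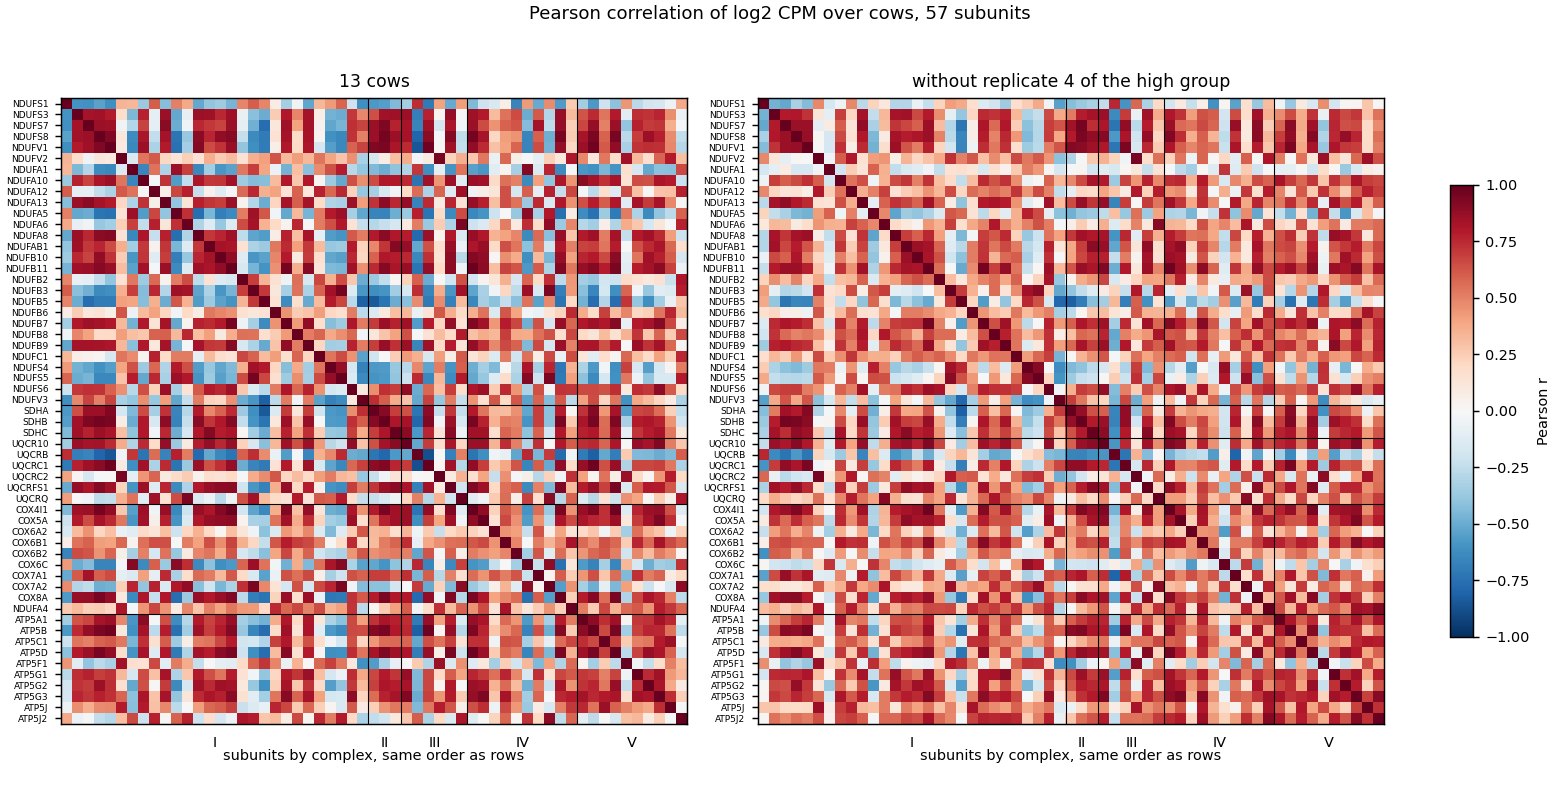
Pearson r between each pair of 57 of the 58 subunits in log2 CPM, by complex, over 13 cows (left) and 12 cows without replicate 4 of the high group (right). Red blocks dominate, with a median r over all 58 subunits of 0.368 on the left and 0.451 on the right, and blue stripes mark subunits such as *UQCRB*, *NDUFB5* and *NDUFA5*.

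The subunits closest to the mean of all others were *COX6B1* (r = 0.922), *NDUFB8*, an accessory subunit of the membrane arm (0.867), *ATP5G1* (0.829), *ATP5G3* (0.821) and *NDUFA4* (0.817). Without replicate 4 these values were 0.923, 0.876, 0.877, 0.944 and 0.823. At the other end stood *NDUFAF4* (-0.276), *NDUFAF1* (-0.233), *UQCRB* (-0.186), *NDUFB5* (-0.177) and *NDUFAF6* (-0.112). They were -0.441, -0.453, -0.443, -0.224 and -0.120 without replicate 4, so *UQCRB* and 2 assembly factors ran further against the subunits in the other 12 cows.

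The mean of a complex in a cow, taken over centred log2 CPM values, showed which cows were high. Replicate 13 of the low group was the highest for the mean of all subunits (0.25) and replicate 9 of the low group the lowest (-0.23). The means of all subunits lay between -0.16 and 0.16 among high cows and between -0.23 and 0.25 among low cows, so the range of the low group enclosed that of the high group. Among pairs of complexes, I and III were closest (r = 0.840 over 13 cows, Spearman 0.786), then II and V (0.802, Spearman 0.797). Without replicate 4 the order changed, with 0.872 for III and V, 0.863 for I and V, 0.854 for I and III, 0.827 for IV and V and 0.761 for II and V. Complexes II and III gave 0.0743, which was 0.440 without replicate 4, and III and V gave 0.516 over 13 cows. In replicate 4 complex II was the lowest of all cows (-0.35) and complex V too (-0.22), while complex III was at 0.22. The complex III mean was raised there by *UQCRB* and *UQCRQ*, which stood 2.24 and 0.62 (log2) above the median of the other cows. Its other subunits lay below that median, from -0.12 in *UQCRC2* to -0.67 in *UQCRC1*. The 2 cows farthest from the median of complex II were replicate 4 of the high and replicate 11 of the low group. With both left out, r of II and III was 0.594, so the value depended on which cows were included. Over all 13 cows the Spearman correlation of II and III was low too, at 0.0110.

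**Figure D5:**
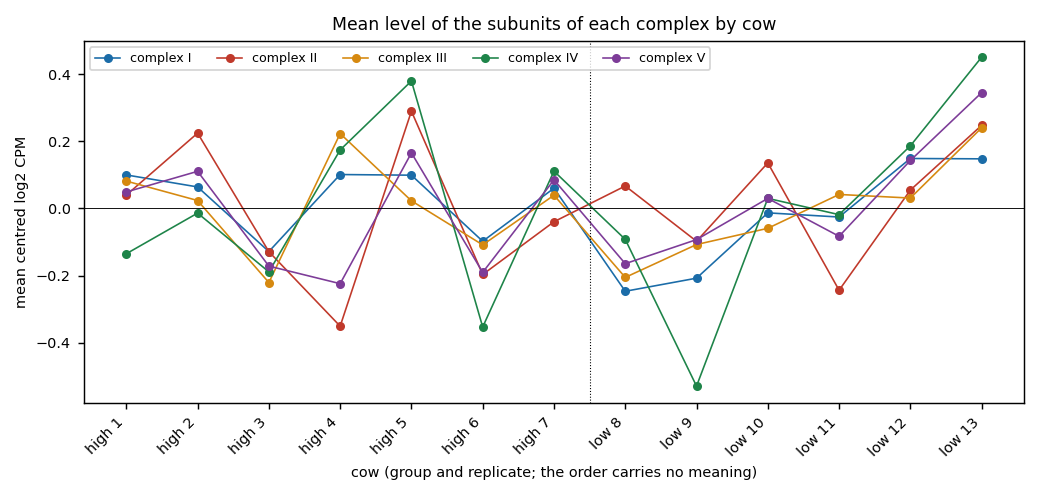
Mean centred log2 CPM of the subunits of each complex in each of 13 cows, high group left of the dotted line and low group right of it. The lines lie farthest apart in replicate 4 of the high group, where complex II stands at -0.35 and complex III at 0.22. They lie next farthest apart in replicate 9 of the low group, where complex IV stands at -0.53. Each subunit counts equally in these means. In replicate 4 only *UQCRB* and *UQCRQ* of complex III lay above the median of the other cows. In replicate 9 *COX6B2* had 4 reads, and *COX6C* and *COX7A1* had their lowest values, at 7.59 and 9.42 RPKM. *COX4I1* and *COX5A* were there at 580 and 384 RPKM, against means of 615 and 372 RPKM over 13 cows.

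In replicate 4 of the high group several short subunits stood apart from the rest. This cow was the highest cow in 21 of the 68 genes (30.9%), close to its 27.4% over all genes, and 8 of the 68 were more than 2-fold above the median of the other cows there (11.8%, against 9.84% of all genes). The 8 were *NDUFA1*, *NDUFA5*, *NDUFB3* and *NDUFS5* of complex I, *UQCRB* of complex III, *COX6C* and *COX7A2* of complex IV and the assembly factor *NDUFAF2*. *NDUFB3* was at 34.5 RPKM in that cow, with a highest value of 15.9 RPKM in the low group, and *NDUFS5* at 94.1 RPKM, with a highest value of 54.2 RPKM in the low group. *NDUFA5*, *NDUFB3* and *NDUFS5* were named after their values were seen. High replicate 5 and low replicate 13 were each the highest cow in 19 of the 68 genes (27.9%), against 10.7% and 12.3% of all genes.

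The 7 of these 8 genes that are subunits had a median exon length of 476 bases, against 727 bases for the other 51 subunits. Since replicate 4 chose them, their median r among themselves is given without it: it was 0.590 over the other 12 cows. Their median r with the other 51 subunits was -0.0190 over those 12 cows, and the other 51 had 0.541 among themselves. With replicate 4 included, the medians were 0.844, -0.345 and 0.490.

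The 68 genes were short, with a median exon length of 726 bases against 2029 bases over all genes tested. In the 16 genes of up to 500 bases, replicate 4 stood 0.71 (log2) above the median of the other cows at the median, against 0.01 over all 240 genes of that length. In the 13 genes of over 600 and up to 800 bases it stood at -0.41, against -0.18 over 395 genes. The log2 fold change of high against low followed the same split, with a median of 0.18 in the 16 shortest genes, of which 12 were positive, and -0.08 in the 15 genes over 1200 bases, of which 4 were. Without replicate 4 these medians were 0.05 and -0.05. Ribosomal proteins of the cytosol were also high in this cow. *RPL23*, *RPL11*, *RPS7* and *RPL26*, chosen after their values were seen, were at 2163, 1708, 1820 and 998 RPKM there, with 633, 799, 869 and 386 RPKM in the next highest cow. The mean of the 54 tested cytosolic ribosomal genes was the highest of all cows in replicate 4. The part of exon length and of the library itself in these values was not tested.

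Lists of other genes were set beside the mean of the 58 subunits over the 13 cows, as descriptions. The mean of 69 mitochondrial ribosomal genes followed it at r = 0.822 (0.825 without replicate 4), the cytosolic ribosome at 0.641, proliferation genes at 0.599 and the citric acid cycle at 0.530. *CYC1* gave 0.591, and 0.906 without replicate 4. Glycolysis gave -0.0483, the regulators -0.105 (-0.351 without replicate 4) and the assembly factors of the other complexes 0.207. Among cell type lists, B cell markers gave 0.427, cytotoxic markers 0.161, T cell markers 0.00794, erythroid markers -0.0141, neutrophil markers -0.202, platelet markers -0.394 and monocyte markers -0.396. One further ATP synthase gene under another name gave 0.834. The mean of the subunits was also related to the share of reads on unnamed genes (r = 0.613) while r was 0.0741 with the log2 number of counted reads and -0.102 with the log2 haemoglobin share. The part of cell make-up in this co-variation was not tested.

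Outside the respiratory genes, the genes that followed the mean of the subunits most closely included *ATOX1*, a copper chaperone (r = 0.919), *SF3B5* and *SNRPD2*, of the splicing machinery (0.912 and 0.901), an RNase P RNA entry (0.902), *LSM7*, of RNA processing (0.896), *RNF181* (0.892), *PSMB3*, a proteasome subunit (0.892), *SIVA1* (0.891) and *NME2*, a nucleoside diphosphate kinase (0.888). The measure was r of log2 CPM over 13 cows, among 11033 genes.

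On the genome, the 68 genes lay on 24 chromosomes. Among those within 100000 bases of each other, *NDUFV1* (chr29:46108281-46114242), the subunit that binds NADH, and *NDUFS8* (chr29:46205045-46208795), an iron-sulfur subunit, correlated at 0.929, and at 0.870 without replicate 4. Pairs far apart were not set beside this value, and a part of position on the genome was not tested. Exons of *ATP5J*, *NDUFB9*, *COX4I1* and *UQCRC2* overlap those of *GABPA*, *MTSS1*, *EMC8* and *PDZD9* on the other strand. The count tables name no strand option, so reads in these overlaps cannot be assigned to one gene or the other.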

How the data were processed

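The authors deposited counts for 13 cows, whole numbers of reads per gene name without normalization, together with exon length (in bases) and positions. Per the file headers, exons were summed by gene name with featureCounts 1.4.6-p3 on the Ensembl 88 models of UMD3.1, with no option for strand, pairs or multiple mapping. The submitters' processing notes name STAR 2.7.3, Subread 1.6.5 and ARS-UCD1.2 instead. Headers also name an alignment folder containing the word goat and animal numbers other than those of the tables, so the assignment of counts to cows, on which every group comparison rests, could be taken from the labels alone. The unnamed entry (13.9% to 16.7% of reads) was left out.

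In R 4.3.3, groups were compared with edgeR 4.0.16 (TMM, filterByExpr with a minimum count of 10 and total of 15, robust quasi-likelihood fit, Benjamini-Hochberg over 11033 genes) at a threshold of 0.05. The SE is the log2 fold change over the square root of F, and intervals are at 95%. Co-variation used log2 CPM (prior count 2). Scripts were tested on simulated data. Alternatives were DESeq2 1.42.0, limma-voom (limma 3.58.1), other scalings and filters, a prior count of 0.5, covariates and each cow left out. Depth was 11045599 to 28124575 reads per cow. The precision of the group comparison also depends on the number of cows and the spread between them, which the intervals cover. Limits for counts of 0 cover counting error only.

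Named genes are the highest subunit of each complex, the 5 highest and 5 lowest by RPKM, by p in each direction and by r, complex II, paralogues, fixed regulators and the 10 closest genes outside the rule. The members, lists and rules were chosen with earlier results of these data known. RefSeq (ARS-UCD2.0) was used for names and to compare chromosomes, matched all 70 names, and no sequence was read. Values of 2 genes are not reported here.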

Additional observations from a re-analysis of the deposited data

Results flagged for a closer look

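Only a part of the 68 genes was screened for single cows that stood apart in log2 CPM. In 5 of the genes screened, the highest cow of the high group stood far from the other 6. The measure was the gap of that cow to the next as a share of the group's range. In 4 of these genes the cow was replicate 4: *UQCRB* (0.705), *COX7A2* (0.671), *NDUFA6* (0.6) and *NDUFAF4* (0.594). In *COX7A1* it was replicate 5 (0.675). The limit for 7 cows is Dixon's 95% value. In the 168 comparisons made, of the highest and of the lowest cow in each group, chance at 1 in 20 groups gives 4.2 such values, and 5 were seen. Genes outside the screen may also pass the limit, so these counts do not describe all 68.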

How the results depend on the processing

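No paired analysis was possible because the groups share no replicate number. No member was called at an adjusted p of 0.05 under any alternative, whichever cow was left out (0 to 0), and DESeq2 called 1 gene of all. Members at an unadjusted p below 0.05 numbered 2 in edgeR and in every other alternative except limma-voom, with 0 members. Over all genes 1.09% to 2.88% had such a p in these settings, where 2 of 68 members are 2.94%. With 1 cow left out the members ranged from 0 to 3, and the share over all genes from 1.74% to 3.4%. There were 0 without high replicate 4 and 1 (*COX6C*) without low replicates 8, 9 or 13. Without high replicate 5 there were 3 (4.41%, against 3.31% of all genes), where *COX6A2* joined at -0.94. The members' median log2 fold change ranged from -0.07 to 0.04 with 1 cow left out and from -0.05 to 0.04 otherwise, against -0.02, so its sign was not stable. With haemoglobin share as a covariate *COX6A2* was at -1.12. The median r over pairs of subunits was 0.311 to 0.451 with 1 cow left out and 0.527 in the low group alone, against 0.368. In complex I it was 0.139 in the high and 0.486 in the low group. Of 837 log2 fold changes of 35 named members under alternatives, 825 were read as the same. For members at an unadjusted p below 0.05 this meant the same direction and a p still below 0.05. For the others it meant a move of less than the SE of their log2 fold change, whatever the sign. *NDUFAF4* and *NDUFAF1* were so read as the same without high replicate 4, although their direction turned. For these others the reading therefore does not speak to direction. At 2 to 26 reads per cow *NDUFAF2* had too few reads for a narrow interval.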
